A study of Mus musculus with 4 samples.

Results

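Granzymes, mast cell proteases and the proteins that store or restrain them were followed in group 2 innate lymphoid cells (ILC2s) from bronchoalveolar lavage (BAL) fluid of mice with airway inflammation. The set held 10 of the 24537 genes of the deposited tables, found by their symbols, and all 10 were present. They were the granzymes *Gzma*, *Gzmb*, *Gzmc* and *Gzmk*, the pore-forming perforin *Prf1*, the proteases *Mcpt8*, *Cma1* and *Cpa3*, the proteoglycan serglycin *Srgn* and the granzyme B inhibitor *Serpinb9*. The genes were selected on the RPKM values of these same 4 libraries, and on an earlier account of them, so the difference of each gene between the groups of mice is given as a description, with no p-value, and nothing is read from how many of them were called.

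Libraries were made from ILC2s sorted by flow cytometry 1 day after the last dose, 2 from mice given IL-33 and 2 from mice given house dust mite (HDM) extract. IL-33, an alarmin that activates ILC2s through its receptor ST2, was given intranasally or intratracheally as 3 doses of 0.5 µg. HDM extract was given over 5 weeks, 3 times a week at 25 µg. All mice carried the GATIR reporter, a YFP cassette placed in the *Gata3* gene so that cells with GATA3 fluoresce, on a C57BL/6 background, and were about 8 to 16 weeks old. By the sample labels the IL-33 mice carried the reporter on both *Gata3* alleles and the HDM mice on 1, whereas the study's methods speak of homozygous mice only, so reporter dose and stimulus cannot be told apart here. The labels also call the IL-33 cells CD25High and the HDM cells CD25Low, although the sort as described gated Lineage- Sca-1+ YFP+ cells without CD25. There was no untreated group, and no source states if the 2 libraries of each group stem from different animals or pools, so the spread between them may be technical.

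Cytotoxic lymphocytes and mast cells keep proteases ready in secretory granules, packed on the sulphated sugar chains of serglycin. Perforin opens membranes so that granzymes reach the inside of a target cell, where granzyme B cuts after aspartate and granzymes A and K cut after basic residues, and SERPINB9 protects the cell that carries granzyme B. Mast cells and basophils use related serine proteases, chymases and tryptases, together with carboxypeptidase A3, against helminths and venoms. Several chymase genes lie in a single cluster with *Gzmb*, *Gzmc* and other granzyme genes, whereas *Gzma* and *Gzmk* lie elsewhere.

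Sequencing gave 10696038 to 16092264 reads in genes per library, and 12895 to 13102 genes had a read after IL-33 against 10675 and 12134 after chronic HDM. All 14 ILC2 marker genes, led by *Id2*, had reads in each of the 4 libraries, and their summed level was 4282 and 4317 RPKM (reads per kilobase of exon, scaled by the mapped reads) in the IL-33 libraries and 3406 and 3266 RPKM after chronic HDM. Within that list single genes differed, among them *Gata3*, which carries the reporter, at 14.9 and 18.9 against 216 and 195 RPKM, and *Il2ra*, which encodes CD25, at 432 and 376 against 27.6 and 22 RPKM, and limma called both. Ribosomal 45S RNA took 3.45% to 4.95% of reads in the IL-33 libraries and 17.4% to 25.4% after chronic HDM. Macrophage markers summed to 1250 and 286 RPKM in the IL-33 libraries and to 3096 and 8569 RPKM after chronic HDM. All 4 Y-linked genes examined had reads in all 4 libraries, while *Xist* passed 100 reads in 2, both from chronic HDM. A mix of sexes that differs between the groups therefore could not be told apart from stimulus.

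Serglycin was by far the most abundant transcript of the set. *Srgn* (chr10:62494428-62507755) stood at 1310 and 1074 RPKM in the IL-33 libraries and at 532 and 573 RPKM after chronic HDM. Both IL-33 libraries lay above both HDM libraries, and the mean was 2.16-fold higher after IL-33, a difference of 1.10 (SE 0.16) in log2(RPKM + 1). In each library *Srgn* was among the most abundant genes of all, at rank 22 and 23 after IL-33 and rank 57 and 51 after chronic HDM. The median difference over all 9523 genes tested was itself 0.28 in favour of IL-33, and with other scalings of the libraries, which brought that median to between 0.03 and 0.08, the difference of *Srgn* was 0.71 to 0.87.

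The second most abundant gene of the set after IL-33 was *Mcpt8* (chr14:56082164-56085197), a serine protease named for mast cells but known from basophils. It had 45.8 and 39.2 RPKM after IL-33, from 499 and 383 reads, and no read in either HDM library. The groups therefore did not overlap. On the deposited RPKM the IL-33 mean was 222-fold the mean floor of 3 reads per HDM library. That ratio allows for counting error only. Other scalings of the libraries would change it, so it is not a lower bound. Of the 10 genes, 4 (*Gzma*, *Mcpt8*, *Srgn* and *Serpinb9*) reached the mean of 2 RPKM needed for the test with limma, *Mcpt8* through the IL-33 libraries alone, 5 had reads but stayed below it, and *Gzmk* had no read. The log2 difference of *Mcpt8* was 5.44 (SE 0.40). It was the 1 gene past the thresholds for a call (an adjusted p under 0.01 and a log2 difference over 1) and, as the genes were chosen on these values and it passed the minimum through the IL-33 libraries alone, nothing is read from that call. Among all 9523 genes tested, 267 (2.80%) were called higher in the IL-33 libraries and 51 (0.536%) higher after chronic HDM, and 0 of the set were among the latter. With either IL-33 library left out limma called no gene at all. With quantile normalization the split over all genes was 82 against 62, with median-of-ratios scaling 85 against 40. In bulk RNA, fewer cells that make a transcript and less RNA per cell cannot be told apart.

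The pattern of reads after IL-33 only was counted among genes of at least the depth of *Mcpt8*, with no upper limit, so many were read more deeply. Of 5000 genes with at least 383 reads in both IL-33 libraries, 36 including *Mcpt8* had none in either HDM library. Among the tested genes nearest to *Mcpt8*, by Euclidean distance of log2(RPKM + 1) over the 4 libraries, were *Tpx2*, a spindle assembly factor (distance 0.30), and *Plk1*, a mitotic kinase (0.47). *Tpx2* had 0.013 RPKM in the second HDM library and so is not among the 36.

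**Figure D1:**
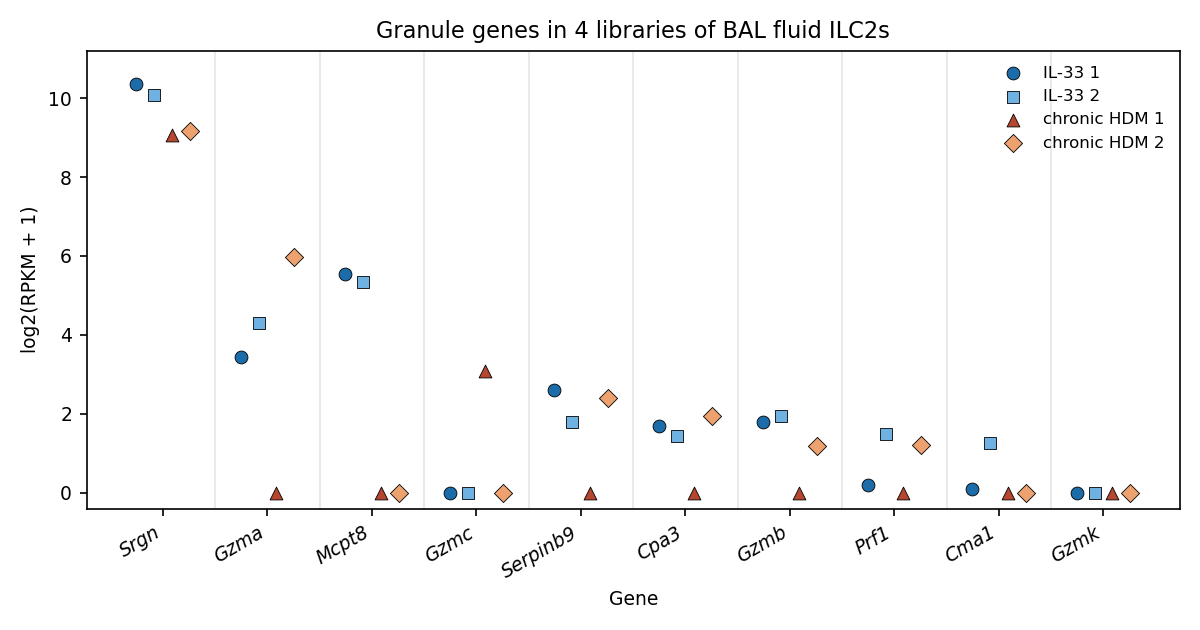
Level of each of the 10 genes in each library, as log2(RPKM + 1) on the vertical axis, with 1 point per library and no error bars because each point is a single library. *Srgn* is highest throughout, *Mcpt8* has reads in the IL-33 libraries only, and the first HDM library (triangles) is at 0 for every gene except *Srgn* and *Gzmc*.

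Among the 10 genes, *Gzma* differed most on the log2 scale between libraries of the same group. *Gzma* (chr13:113093827-113100981) encodes granzyme A. It had 9.91 and 18.6 RPKM with IL-33, and 0 and 62.0 RPKM in the 2 HDM libraries, from 113, 190, 0 and 994 reads. The IL-33 values thus lay between those of the HDM libraries, and in the second HDM library *Gzma* ranked 1006 of 12134 genes with a read, against ranks 5543 and 4113 after IL-33. The difference of 0.88 (SE 1.85) in log2(RPKM + 1) depended on which HDM library was kept, at 3.87 higher after IL-33 without the second and -2.11, lower after IL-33, without the first.

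*Gzmb* (chr14:56258836-56262334), the aspartate-cutting granzyme, was low throughout. Its level was 2.44 and 2.83 RPKM with IL-33, and 0 and 1.26 RPKM in the 2 HDM libraries, from 48, 50, 0 and 35 reads. Both IL-33 libraries were above both HDM libraries, but the mean over all 4 stayed under the 2 RPKM minimum. Compared per length, *Gzma* was 4.07 and 6.57 times as abundant as *Gzmb* in the IL-33 libraries and 49.1 times in the second HDM library.

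*Gzmc* (chr14:56231401-56234657), a granzyme of activated killer lymphocytes in rodents, was the one gene of the set seen only in the first HDM library. There it had 7.51 RPKM from 134 reads, and the other libraries had none. *Gzmk* (chr13:113171874-113180897), the other tryptic granzyme, had no read in any library, where 3 reads would be 0.199 to 0.325 RPKM. *Prf1* (chr10:61297836-61304263) had 0.149 and 1.83 RPKM in the IL-33 libraries and 0 and 1.33 after chronic HDM, so its level differed more between the 2 IL-33 libraries, with 4 and 44 reads, than between the group means.

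The remaining proteases of mast cells were faint. *Cma1* (chr14:55941451-55944675), the chymase, had 0.070 and 1.42 RPKM after IL-33, from 1 and 18 reads, and none after chronic HDM. *Cpa3* (chr3:20215616-20242181), the granule carboxypeptidase, had 2.23 and 1.72 RPKM in the IL-33 libraries and 0 and 2.87 RPKM after chronic HDM. The granzyme B inhibitor *Serpinb9* (chr13:33004541-33017955) had 5.09 and 2.49 RPKM in the IL-33 libraries and 0 and 4.28 RPKM after chronic HDM. In both of the latter genes the second HDM library lay within or above the IL-33 range and the first had no read.

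Of the 9 genes with a read, 4 (*Gzmb*, *Mcpt8*, *Cma1* and *Srgn*) were higher in both IL-33 libraries than in both HDM libraries, 0 showed the reverse and 5 overlapped. Over all 14448 genes with a read, 36.4% were separated in that way toward IL-33 and 18.4% toward chronic HDM. Each IL-33 library had reads for 8 of the 10, the first HDM library for 2 and the second for 6. Over all genes the 2 HDM libraries also differed in which genes had reads. Of genes with at least 30 reads in the second HDM library, 10.9% (1155 of 10579) had none in the first, compared with 2.5% in the opposite direction and 0.474% and 0.235% between the IL-33 libraries. At the depth of *Gzma*, 5 of 3003 genes with at least 994 reads in the second HDM library had none in the first, and at the depth of *Gzmc*, 124 of 8289 genes with at least 134 reads in the first had none in the second. No gene with 134 or more reads in either IL-33 library lacked reads in the other.

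The genes most like *Gzma* over the 4 libraries by the same distance were *Rps6ka4*, a stress-activated kinase (1.03), the microRNA gene *Mir5046* (1.19) and *Sart3*, a splicing factor (1.54). All 3 were lowest in the first HDM library and highest in the second, an order that the choice by distance favours. *Rps6ka4* had 9.32, 11.1, 0.401 and 41.2 RPKM. For *Gzmb* the nearest were *Syne4* (0.38), *Arsk* (0.41) and *Fam214a* (0.48).

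The granule protease cluster on chromosome 14 (chr14:55941451-56262334) holds 4 of the 10 genes. Of its 15 listed genes, 7 had a read in the IL-33 libraries and 2 after chronic HDM, and the cluster as a whole gave 562 and 457 reads in the IL-33 libraries and 134 and 35 after chronic HDM. *Mcpt8* supplied 88.8% and 83.8% of the cluster's reads after IL-33, whereas all reads were from *Gzmc* in the first HDM library and from *Gzmb* in the second. These 2 granzyme genes start 27.7 kb apart, and *Mcpt8* starts 177 kb from *Gzmb*. The genes next to *Mcpt8* were near or at 0. *Mcpt4*, a chymase of connective tissue mast cells on one side, had no read in any library. *Ctsg*, cathepsin G, on the other, had 0.385 and 0.344 RPKM after IL-33, from 5 and 4 reads. *Mcpt1*, *Mcpt9* and *Cma2* had 6, 4 and 1 reads over the IL-33 libraries, and *Mcpt2*, *Gzmd*, *Gzme*, *Gzmf*, *Gzmg* and *Gzmn* had none anywhere.

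**Figure D2:**
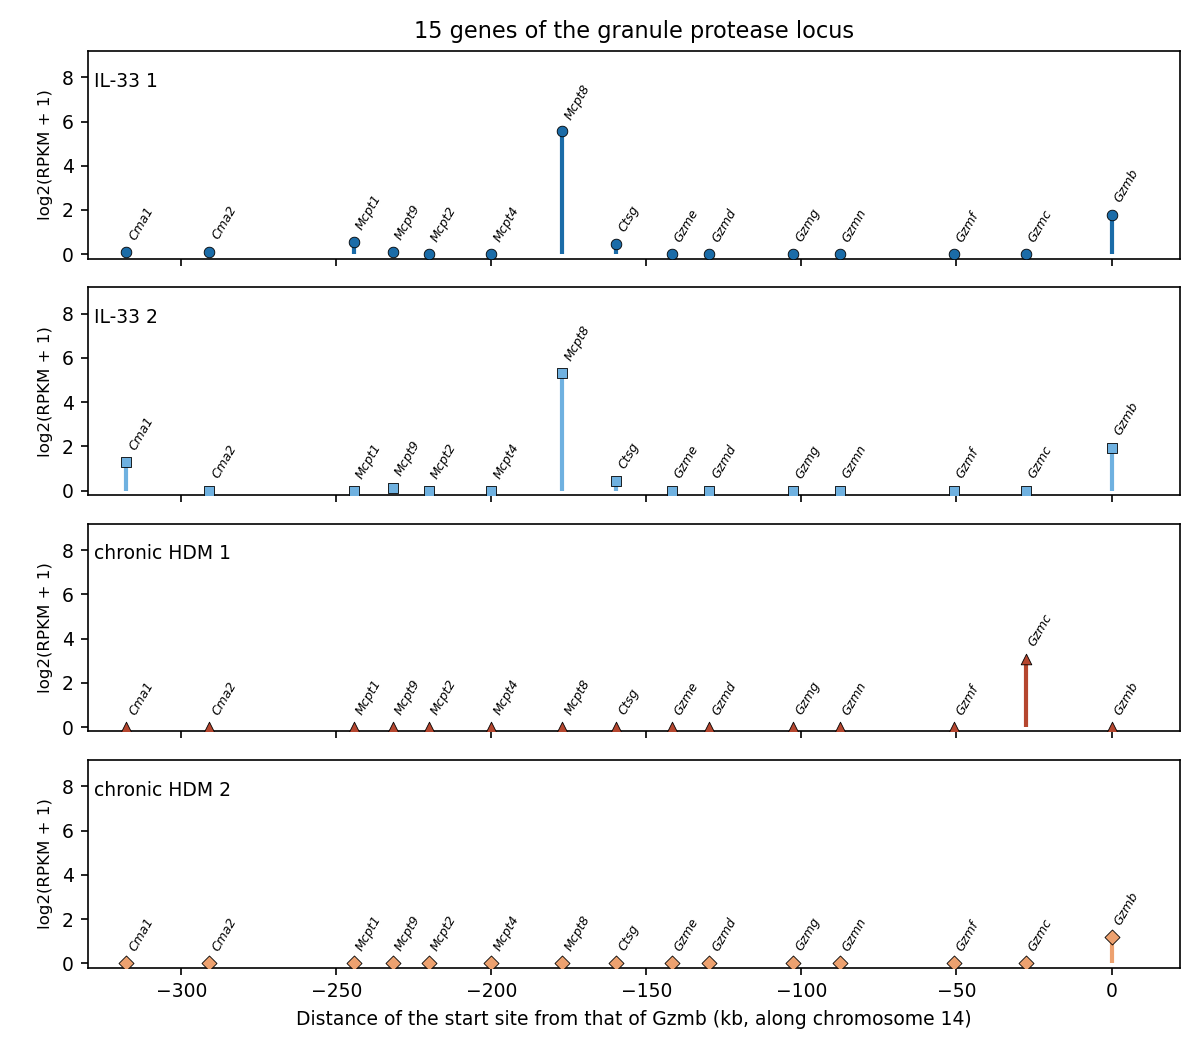
The 15 cluster genes in each library, with the distance of each start site from that of *Gzmb* in kb on the horizontal axis and log2(RPKM + 1) on the vertical axis. The peak is *Mcpt8* in both IL-33 libraries, *Gzmc* in the first HDM library and *Gzmb*, at 1.26 RPKM, in the second.

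These genes are close relatives, so windows of 51 bases, the read length, were compared between their transcripts and those of all other genes (GENCODE M21). No window of *Mcpt8*, *Gzma*, *Gzmb*, *Gzmk*, *Prf1*, *Cpa3* or *Srgn* occurred in another gene. *Gzmc* shared 3.79% of its windows, with *Gzme*, *Gzmg* and *Gzmd*, *Cma1* shared 5.19% with a predicted gene, and *Serpinb9* shared 0.349% with *Serpinb9b*. No exon of the 10 overlapped an exon of another gene on either strand. Some neighbours in the cluster were less distinct, with *Cma2* sharing 39.3% and *Gzmd* 21.1% of their windows, so their reads are less certain.

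Promoter windows were taken from RefSeq (GRCm38.p6, the mm10 assembly), each running from 250 bases before to 50 bases after a start site. All 10 genes matched by symbol, and the window used for *Gzmk* starts 68 bases from the start in the deposited tables, that of *Srgn* 2 bases and the others at the same base. The 250 bases before the start are shown for *Mcpt8*, *Gzmb* and *Gzmc*, which gave most of the reads of the cluster, and for *Gzma*, which varied most, with the RUNX motif TGTGGT or its complement in capitals. They are *Mcpt8* (chr14:56085198-56085447), *Gzmb* (chr14:56262335-56262584), *Gzmc* (chr14:56234658-56234907) and *Gzma* (chr13:113100982-113101231), all read 5′ to 3′ from the minus strand.
Mcpt8: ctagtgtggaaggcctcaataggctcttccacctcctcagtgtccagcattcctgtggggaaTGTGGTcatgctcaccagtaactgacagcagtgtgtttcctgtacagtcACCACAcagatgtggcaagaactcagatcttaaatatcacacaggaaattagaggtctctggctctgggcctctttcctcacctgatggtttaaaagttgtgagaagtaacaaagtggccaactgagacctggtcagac
Gzmb: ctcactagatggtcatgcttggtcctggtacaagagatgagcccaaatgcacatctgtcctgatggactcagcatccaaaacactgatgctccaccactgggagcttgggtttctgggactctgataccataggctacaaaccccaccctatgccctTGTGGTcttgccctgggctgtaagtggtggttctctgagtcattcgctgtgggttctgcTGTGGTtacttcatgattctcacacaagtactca
Gzmc: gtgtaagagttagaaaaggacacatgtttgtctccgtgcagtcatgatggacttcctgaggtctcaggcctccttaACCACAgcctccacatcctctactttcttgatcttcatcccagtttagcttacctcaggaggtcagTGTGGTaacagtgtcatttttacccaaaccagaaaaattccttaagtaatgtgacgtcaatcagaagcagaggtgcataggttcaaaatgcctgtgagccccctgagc
Gzma: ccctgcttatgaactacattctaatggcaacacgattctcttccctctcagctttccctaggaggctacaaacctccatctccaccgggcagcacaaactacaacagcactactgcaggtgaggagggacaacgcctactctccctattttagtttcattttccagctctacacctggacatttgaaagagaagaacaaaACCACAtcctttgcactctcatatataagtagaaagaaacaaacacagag

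RUNX factors are lymphoid regulators, and RUNX3 is known from the cytotoxic programme. The motif was present in the windows of 9 of the 10 genes, with *Gzmk* the exception, compared with 16.8% of all 32851 windows. Among the 17811 windows with no more CG dinucleotides than the richest of the 10 (8), the share was 21.6%. That limit comes from *Gzmk*, and the 9 genes with the motif had 0 to 5 CG, so the share is not matched to them. *Mcpt8* carried it 188 and 139 bases before the start, *Gzmb* 93 and 34, *Gzmc* 174 and 108 and *Gzma* 50. *Prf1*, *Cpa3* and *Srgn* had 1 match each before the start, and in *Cma1* and *Serpinb9* the match lay after it. Of the 12 other granzyme and mast cell protease genes with a window, 9 held it too. Several of the 12 are copies of one another and several of the 10 are relatives, so neither group holds independent cases. It overlapped no other motif searched in these windows. The other motifs, searched on both strands, were found in fewer of the windows. The GATA motif (GATA between a leading A or T and a closing A or G) was found in *Cma1* and *Cpa3*, 2 of the 10, and in 8 of the 12 related genes. The shares were 29.8% of all windows and 42.2% of those with at most 8 CG. STAT (TTCNNNGAA) and AP-1 (TGANTCA) each occurred in *Gzmb* alone, against 8.3% and 7.81%, and the T-box motif GGTGTGA in *Gzmk* alone, against 3.98%. A match describes letters and not a bound site.

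**Figure D3:**
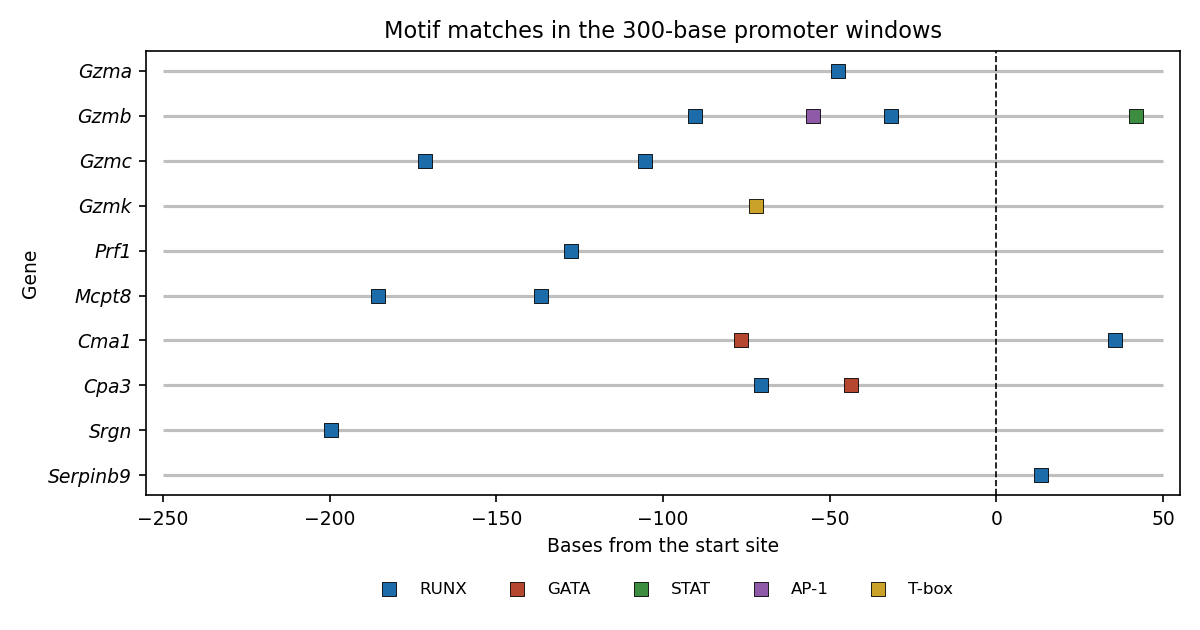
Matches of 5 motifs in the promoter window of each gene, with the distance from the start site in bases on the horizontal axis, negative before the start, and 1 square per match. RUNX squares are on 9 of the 10 lines, 2 each on *Gzmb*, *Gzmc* and *Mcpt8*.

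Factors that act on such genes were measured with the same fit. Of 17 transcription factors of cytotoxic or mast cell genes, 13 were tested, and with limma 0 were called in either direction, with a median log2 difference of 1.06 against 0.28 over all genes tested. An unadjusted p under 0.05 was found for 8 of the 13, and for 36.7% of all genes tested. The 13 include *Tbx21*, which reached the minimum through the IL-33 libraries alone. They also include *Bach2*, named after its values were seen, which reached it through the HDM libraries alone. Neither that count nor the median is therefore a test. The most abundant were *Batf*, an AP-1 partner, at 522 and 435 RPKM in the IL-33 libraries and 218 and 254 RPKM after chronic HDM, and *Nfil3*, which early innate lymphoid cells need, at 136 and 109 against 46 and 37.5 RPKM. For both, the groups were separate, with log2 differences of 1.02 (limma, adjusted p = 0.0191) and 1.53 (adjusted p = 0.0143), short of the 0.01 threshold. Named after their values were seen, *Tbx21*, which encodes T-bet, had 4.29 and 5.29 RPKM after IL-33 and no read after chronic HDM. Its IL-33 mean was 76.4-fold the mean HDM floor of 3 reads. *Tbx21* reached the minimum for the test through the IL-33 libraries alone, so no p is given. *Runx3* had 17.4 and 22.9 against 6.83 and 12.0 RPKM (limma adjusted p = 0.117), and *Runx1* 6.93 and 7.15 against 4.17 and 6.98 RPKM (0.622). *Gata2*, which mast cells and basophils require, had no read in any library.

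None of the other granzymes or mast cell proteases reached the minimum for the test. Of 6 further granzymes only *Gzmm* had reads, 6 and 1 after IL-33. Of 10 further mast cell and basophil proteases 5 had reads, all after IL-33, led by the tryptase *Tpsab1* and by *Ctsg*. *Tpsab1* had 0.709 and 0.791 RPKM, from 11 reads in each IL-33 library, and no read after chronic HDM. Its IL-33 mean was 5.57-fold the mean HDM floor of 3 reads. *Prss34*, the protease known from basophils together with *Mcpt8*, and *Tpsb2*, *Tpsg1*, *Mcpt2* and *Mcpt4* had none.

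The machinery that matures granzymes and releases granules was well represented in both groups. Of its 25 genes all had reads but *Vamp7*, which the tables list only on an unlocalized scaffold of chromosome X, so that its 0 may not speak for the gene, and of the 23 tested limma called 0 (10 at an unadjusted p under 0.05, against 36.7% of all genes), with a median log2 difference of 0.32. The most abundant were *Vamp8*, a vesicle SNARE, at 217 and 191 RPKM in the IL-33 libraries and 198 and 158 after chronic HDM, and the granule membrane protein *Lamp1*, at 111 and 143 against 153 and 189 RPKM. Neither passed (limma adjusted p = 0.501 and 0.216). Cathepsin C, *Ctsc*, which removes the dipeptide that keeps granzymes inactive, had 31.5 and 27.3 against 9.68 and 19.2 RPKM (limma adjusted p = 0.121).

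Some genes of that list fell between the thresholds of 0.01 and 0.05 and are named after their values were seen. At an adjusted p under 0.05, 13.8% of all genes tested were higher in the IL-33 libraries and 4.78% higher after chronic HDM. In the list 5 were higher after IL-33 at that level and 0 after chronic HDM. They were *Ctsh*, a cathepsin that can also activate granzyme B (log2 difference 2.83, adjusted p = 0.0156 from limma), *Cst7*, the cathepsin C inhibitor cystatin F (1.20, 0.0185), and the exocytosis genes *Stx11* (1.32, 0.0174), *Snap23* (1.49, 0.0299) and *Sytl3* (4.09, 0.0265). *Ctsh* had 160 and 165 RPKM in the IL-33 libraries and 13.4 and 35.9 RPKM after chronic HDM, and *Sytl3* had 35.7 and 45.4 RPKM after IL-33 against 4.70 and 0.024.

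Of the 18 genes that build the sugar chains of serglycin, 5 were higher in both IL-33 libraries than in both HDM libraries and 7 the reverse. Over all genes with a read the shares were 36.4% and 18.4%. All 18 had reads, and limma called 0 of the 16 tested (3 at an unadjusted p under 0.05, against 36.7% of all genes), with a median log2 difference of 0.01. Named after their values were seen, *Csgalnact1* averaged under 2 RPKM after chronic HDM (1.42), and *Xylt2* and *Ndst2* after IL-33 (1.84 and 1.81). These 16 include genes that reached the minimum through 1 group, so neither the count nor the median is a test. *Chst12*, a chondroitin 4-sulphotransferase and the most abundant, had 115 and 102 RPKM in the IL-33 libraries and 12.8 and 37.0 after chronic HDM (2.25, limma adjusted p = 0.0326). *Ext2*, a heparan sulphate polymerase, had 31.6 and 39.3 against 40.6 and 34.4 RPKM (limma adjusted p = 0.848). *Chpf2*, a chondroitin polymerizing factor named after its values were seen, differed the other way, at 3.79 and 8.38 against 50.3 and 24.8 RPKM (-2.44, limma adjusted p = 0.0297).

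Among other protease-inhibiting serpins, 10 of 16 had reads and limma called 0 of 5 tested (2 at an unadjusted p under 0.05, against 36.7% of all genes), with a median of -0.61. The close relatives of *Serpinb9*, *Serpinb9b* to *Serpinb9g*, had no reads. *Serpina3g*, an inhibitor of cathepsins, was the most abundant at 414 and 391 RPKM in the IL-33 libraries and 208 and 181 after chronic HDM (1.05, limma adjusted p = 0.0143), followed by *Serpinb6a* at 68.8 and 70.7 against 66.4 and 51.2 RPKM (0.472). *Serpinb2*, an inhibitor of plasminogen activators named after its values were seen, differed the other way, at 0.462 and 0 against 13 and 9.69 RPKM (-3.34). It reached the minimum through the HDM libraries alone, so the count and median of this list, which include it, are no test.

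Of 13 other cytotoxic effectors 9 were tested, with a median log2 difference of -1.07, and limma called 1 higher after chronic HDM, as it did 0.536% of all genes tested, and 0 higher after IL-33. An unadjusted p under 0.05 was found for 6 of the 9, against 36.7% of all genes. The 9 include *Klrk1*, *Xcl1* and *Tnf*, named after their values were seen, which reached the minimum through the HDM libraries alone. Neither that count nor the median is therefore a test. The gene called was *Ltb*, lymphotoxin beta, a membrane-bound TNF family ligand. It had 174 and 193 RPKM in the IL-33 libraries and 662 and 520 RPKM after chronic HDM, a log2 difference of -1.67, IL-33 minus chronic HDM (limma adjusted p = 0.00795). The call was lost when either IL-33 library was left out. *Ctsw*, the cathepsin of cytotoxic cells, named after its values were seen, had 92.7 and 121 against 205 and 213 RPKM (-0.97, limma adjusted p = 0.0298). *Fasl* and *Ifng*, both typical of killer cells, stayed under the minimum, *Ifng* at 1.58 and 0.707 RPKM after IL-33 without a read after chronic HDM.

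**Figure D4:**
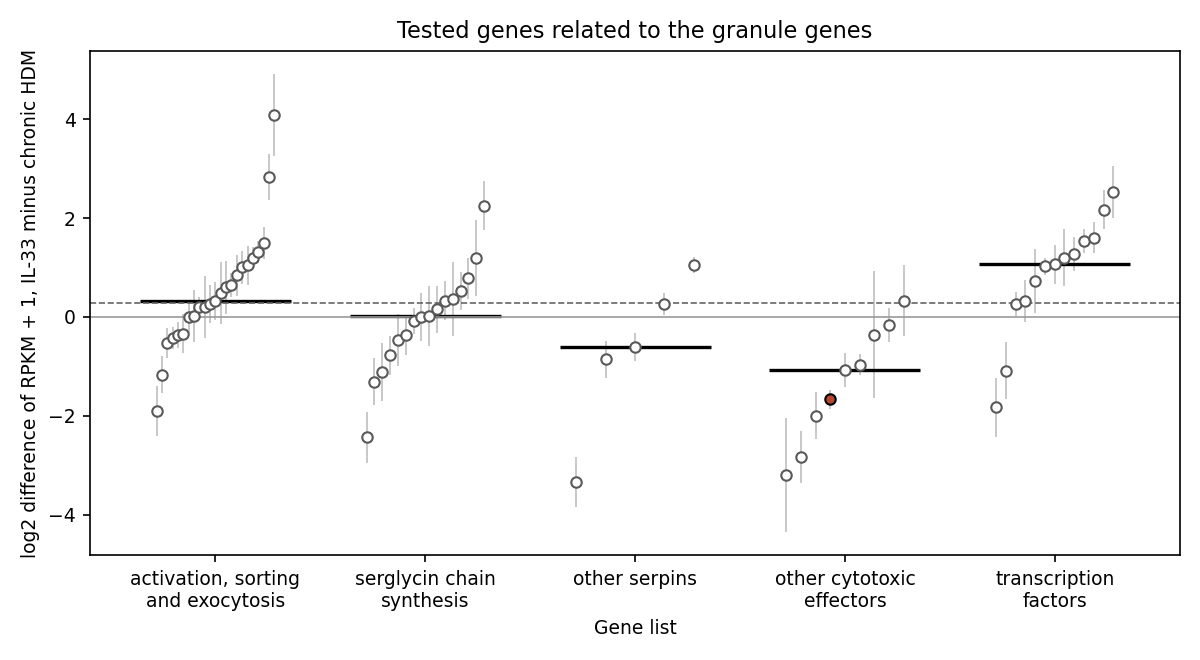
Difference in log2(RPKM + 1), IL-33 minus chronic HDM, for each tested gene of 5 lists, with bars of 1 standard error from limma, a black line at each list's median and a dashed line at 0.28, the median over every gene tested. The filled red point is *Ltb*, the single gene called, and open points were not called. Transcription factors have the highest median (1.06) and other cytotoxic effectors the lowest (-1.07). Some points are genes that reached the minimum through 1 group alone.

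Because granule proteases are abundant in mast cells, basophils and NK cells, markers of these cells were set beside them. Of 12 basophil and mast cell markers 5 (*Ms4a2*, *Mrgprb1*, *Mrgprb2*, *Tpsb2* and *Prss34*) had no read in any library. The list summed to 53.3 and 65.5 RPKM in the IL-33 libraries and to 27.7 and 15.3 RPKM after chronic HDM, with *Cyp11a1*, a steroidogenic enzyme, the highest at 39.0, 51.5, 14 and 0.888 RPKM. *Fcer1a*, the alpha chain of the high-affinity IgE receptor and a target of the lineage antibodies, had 55 and 26 reads after IL-33 and none after chronic HDM, like *Mcpt8*. *Hdc*, the histamine-forming enzyme, had 6 and 42 in the IL-33 libraries and 0 and 258 after chronic HDM. Named after their values were seen, *Cd200r3* had 0 and 12 against 0 and 31 reads and *Slc18a2* 22 and 44 against 614 and 30. Of the 7 markers with a read, 4 were higher in both IL-33 libraries than in both HDM libraries and 0 the reverse. Over all genes with a read the shares were 36.4% and 18.4%. Of 11 NK cell markers 7 had no read, *Klrb1c*, which encodes NK1.1, and *Klra3*, *Klra4*, *Klra8*, *Klra9*, *Klre1* and *Klri2*. *Cd160* had the highest mean over the 4 libraries. *Itga2*, also found on basophils and named after its values were seen, had 62 and 82 reads after IL-33 and none after chronic HDM. Its IL-33 mean was 36.7-fold the mean HDM floor of 3 reads. The list summed to 2.80 and 3.66 RPKM in the IL-33 libraries and to 0 and 2.11 RPKM after chronic HDM. That order, lowest in the first HDM library, was also the order of *Gzmb*. It was not that of *Cd160*, at 1.645 and 1.121 RPKM in the IL-33 libraries and 0 and 1.974 RPKM after chronic HDM. The first HDM library likewise had no read of *Gzma*, *Prf1*, *Cpa3* or *Serpinb9*. The part of the NK cell markers in the result was not tested.

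Among T cell markers, the coreceptor genes *Cd4*, *Cd8a* and *Cd8b1* and *Cd5* had no reads, and the list sum of 80.0, 104, 71.7 and 83.5 RPKM came almost wholly from *Cd3g*. Macrophage markers were lowest in the second IL-33 library and highest in the second HDM library, where *Chil3* alone had 6162 RPKM and *Gzma* was also highest. Eosinophil markers, led by *Ear2*, summed to 22.8 and 6.42 against 63.3 and 46.1 RPKM, with *Epx*, *Prg3* and *Ear6* at 0. Of 10 neutrophil markers 8 had no read (*S100a9*, *Ly6g*, *Mpo*, *Elane*, *Camp*, *Ltf*, *Ngp* and *Csf3r*), and *S100a8* led. Among B cell markers *Ms4a1* and *Pax5* had none, and *Cd79b* gave nearly all of the sum of 38.4 and 27.4 against 8.74 and 6.80 RPKM. The part of these cells in the levels of the 10 genes was not tested.

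**Figure D5:**
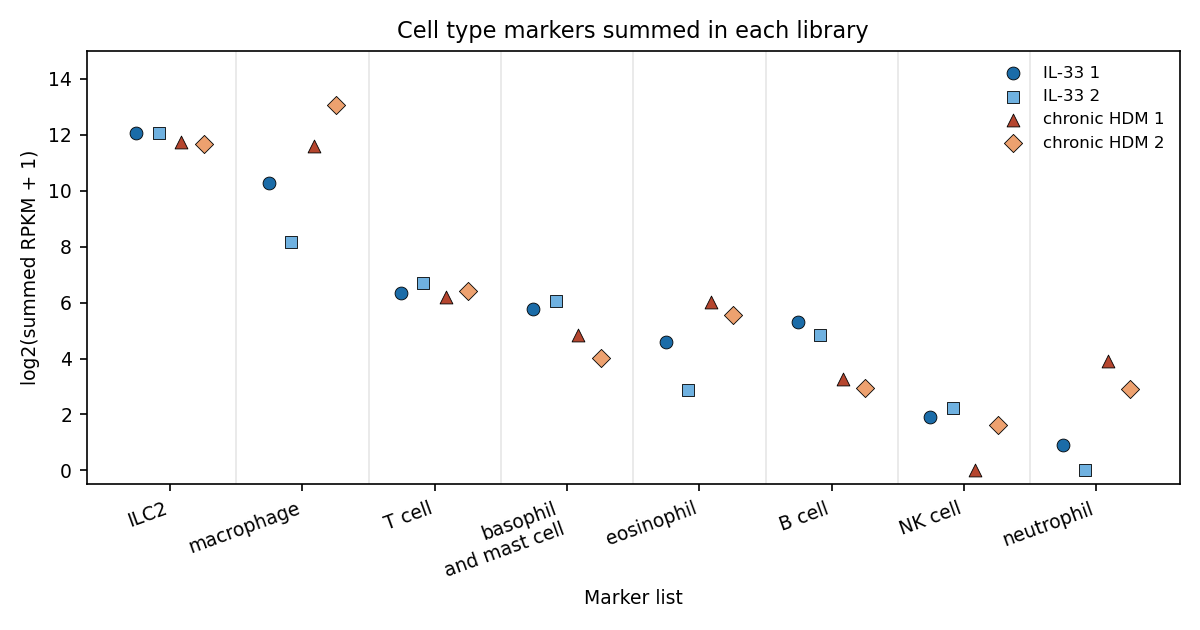
Summed level of 8 marker lists in each library, as log2(summed RPKM + 1), with 1 point per library. ILC2 markers sum to between 3266 and 4317 RPKM, macrophage markers are highest in the second HDM library (8569 RPKM), and NK cell markers are at 0 in the first HDM library.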

How the data were processed

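RNA of the 4 sorted samples was made into Smart-seq2 libraries and sequenced by the authors as single reads of 51 bases, which carry no molecular identifiers. The submitters' processing notes name HISAT2 2.0.4 as the aligner and mm10 as the build. Reads were counted over exons with HOMER and deposited as RPKM values, 1 transcript per gene, after scaling each library to 10000000 reads per the file headers. The authors tested counts with DESeq2 as run by HOMER. Values of 1 read depend on gene length, and dividing them out gave whole reads (within 0.1) for 99.79% to 99.96% of values above 0. These recovered reads, and 13097418, 11743271, 19224028 and 18395513 mapped reads per library in the order IL-33 1 and 2 and chronic HDM 1 and 2, are the read numbers given here. A floor of 3 reads and all read numbers cover counting error only.

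From the deposited RPKM, log2(RPKM + 1) was computed. Genes averaging 2 RPKM or more over all libraries, 9523 of them, entered limma 3.58.1 (R 4.3.3, intensity trend, two-sided, Benjamini-Hochberg adjustment over all of them). Calls required an adjusted p below 0.01 with a log2 difference above 1, the thresholds of the study. Fold changes on the log2(RPKM + 1) scale understate changes of low genes. An exact permutation test of 2 against 2 libraries cannot go below p = 0.33 and was not used for single genes. The fit was checked on simulated data. Motifs were searched by exact match in promoter windows from RefSeq. The 10 genes, the lists of related genes and markers (196 genes in all) and the motifs were chosen with earlier results of these data known. Named were the 10 genes, all genes of the cluster, up to 4 called genes per related list or else the 2 most abundant, the 3 genes nearest to *Gzma*, *Gzmb* and *Mcpt8*, and per marker list the most abundant gene and those without reads. Others are said to be named after their values were seen, and the remaining markers named (*Fcer1a*, *Hdc*, *Cd5*, *Gata3*, *Il2ra*), *Ctsc*, *Fasl* and *Ifng* were also named then. Values of some genes under this rule are not reported here.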

Additional observations from a re-analysis of the deposited data

How the results depend on the processing

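Calls among the 10 genes rest on values that also chose them, so the counts that follow describe the settings and are no sign of stability. The number called higher after IL-33 was 1 (*Mcpt8*), and 1 as well with quantile normalization, median-of-ratios scaling, scaling without 45S ribosomal RNA and robust variances. It was 0 with a pseudocount of 0.1, with no minimum RPKM, without the intensity trend and with limma-voom on the recovered reads, where 0 of all genes were called, and 2 (*Mcpt8* and *Srgn*) with a pseudocount of 2, a minimum of 5 RPKM or an adjusted p under 0.05. With 1 library left out, the lone library left in a group was assumed to vary like the pair in the other, so no count of calls is read from those fits. None of the 10 was called higher after chronic HDM in any of the 17 settings run. Of the related genes, 0 were called higher after IL-33, but 3 with a minimum of 5 RPKM, 12 at an adjusted p under 0.05 and 0 to 16 with 1 library left out. The single related gene called higher after chronic HDM, *Ltb*, became 0 with a pseudocount of 0.1, no minimum, no trend or voom, 5 at an adjusted p under 0.05 and 0 to 6 with 1 library left out. With the replicate number as a block (replicate block), 2 of the 10 and 11 related genes were called higher after IL-33 and 3 related genes higher after chronic HDM, while over all genes calls went from 267 and 51 to 987 and 267. Libraries that share a number did not deviate together (r = -0.0385), so the numbers were not taken to pair them. Over all genes, calls were 394 and 76 with a pseudocount of 2, 502 and 107 with a minimum of 5 RPKM, 82 and 62 with quantile normalization, 85 and 40 with median-of-ratios scaling and 84 and 38 without 45S RNA, and these 3 scalings moved the median log2 difference from 0.28 to 0.03, 0.07 and 0.08. Direction changed without chronic HDM replicate 1 for *Gzma* (-2.11), *Prf1* (-0.37), *Cpa3* (-0.39) and *Serpinb9* (-0.20), and for *Prf1* without IL-33 replicate 2 (-0.41). *Gzmc* had a difference of 0 without chronic HDM replicate 1. The log2 difference of *Mcpt8* ran from 4.47 to 10.26. The causes of these changes were not tested. Depth limits *Gzmk*, *Cma1* and the other genes of a few reads, whose absence from a library is not shown.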
